A study of Mus musculus with 10 samples.

Results

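A B cell that switches class keeps its rearranged V, D and J segments and exchanges the constant gene behind them. A heavy-chain rearrangement found with IgM or IgD and with IgG, IgA or IgE in 1 mouse can therefore show both stages of a receptor. Whether the rows of such a rearrangement descend from 1 cell was not tested. Such rearrangements, called spanning here, were collected from bulk B cell receptor sequencing of the deep cervical lymph nodes, which drain the brain and meninges. All 10 mice were C57BL/6 wild type and carried GL261, a mouse glioma cell line injected into the brain, with lymph nodes harvested at day 20. The isotype group (n = 5) had received a control IgG and the anti-CTLA-4 group (n = 5) an antibody against CTLA-4, an inhibitory receptor of T cells. RNA came from whole dissociated nodes with no sorting, so more cells of a kind and more RNA per cell cannot be told apart. Members were chosen by their rows and counts alone. A spanning rearrangement was a V name, J gene and junction with IgM or IgD in 1 productive row of a mouse and a switched class in another row. The rule found 922 of them, and 876 were left once each was assigned to the mouse with most counts. They were 876 of 278119 productive heavy-chain rearrangements, against 4845 with switched classes alone and 272352 with IgM or IgD alone.

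IgM is the first class a B cell makes, and IgD is spliced from the same primary transcript in naive cells. Switching is carried out by the enzyme AID, which also mutates V regions, so the number of V mismatches is a second record of a cell's history. In mice IgG2a/c (the IgG2c gene in this strain) is known to be favoured by interferon-gamma, IgG1 and IgE by interleukin-4, and IgA by TGF-beta. Receptor transcript is far more abundant in a plasma cell than in a resting B cell, so counts weigh secreting cells. Numbers give each rearrangement the same weight, but whether a rearrangement was found to span could itself depend on its counts. Among rearrangements whose main switched class was IgG, 9.76% spanned at 1 switched count and 73.6% at 1000 or more. For IgA the shares were 1.29% and 6.47%, with no steady rise over the counts between. Numbers of spanning rearrangements are therefore not free of the weight of counts.

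The leading spanning rearrangement of each mouse, the one with most counts, is shown by its junction, the stretch from the conserved cysteine codon to the conserved tryptophan codon. Letters are 5′ to 3′, and capitals mark bases that the deposited germline alignment assigned to no V, D or J gene, the bases that are particular to a rearrangement. The same junction stood in the IgM or IgD row and in the switched row. The isotype mice come first, then the anti-CTLA-4 mice.
IGHV1-50 with IGHJ2, isotype replicate 1: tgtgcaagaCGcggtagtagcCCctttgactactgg
IGHV2-9 with IGHJ1, isotype replicate 2: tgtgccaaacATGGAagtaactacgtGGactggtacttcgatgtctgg
IGHV1-47 with IGHJ3, isotype replicate 3: tgtgcattactacggtttgcttactgg
IGHV1-62-3/IGHV1-72 with IGHJ3, isotype replicate 4: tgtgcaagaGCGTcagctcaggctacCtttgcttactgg
IGHV5-9-1 with IGHJ2, isotype replicate 5: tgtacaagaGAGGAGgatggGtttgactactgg
IGHV1-50 with IGHJ2, anti-CTLA-4 replicate 1: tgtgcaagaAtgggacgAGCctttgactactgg
IGHV1-62-2/IGHV1-71 with IGHJ1, anti-CTLA-4 replicate 2: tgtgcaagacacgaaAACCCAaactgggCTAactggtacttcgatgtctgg
IGHV1-49 with IGHJ1, anti-CTLA-4 replicate 3: tgtgcaagGGAgtacttcgatgtctgg
IGHV8-8 with IGHJ2, anti-CTLA-4 replicate 4: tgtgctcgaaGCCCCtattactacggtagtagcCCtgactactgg
IGHV1-9 with IGHJ3, anti-CTLA-4 replicate 5: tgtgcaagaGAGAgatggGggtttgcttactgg

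The balance between the classes in these leaders ranged widely. The IGHV1-50 rearrangement of anti-CTLA-4 replicate 1 held 59873 deposited counts of IgG2a/c, 38985 of IgG2b, 3491 of IgG3, 1714 of IgG1 and 1 of IgE, beside 353 of IgM and 9 of IgD. The other IGHV1-50 leader, in isotype replicate 1 and with another junction, held 8030 counts of IgM beside 10208 of IgG2a/c and 5369 of IgG2b, so 33.0% of its counts were unswitched. IGHV1-47 in isotype replicate 3 was mainly IgE, with 26045 counts of IgE, 5587 of IgG1 and 4 of IgM, and its junction was the only leader with no base left outside the germline segments. In isotype replicates 4 and 5 and anti-CTLA-4 replicate 4 the leader was an IgA rearrangement. The IGHV8-8 leader had 13055 counts of IgA and 1 of IgM, the joint IGHV1-62-3/IGHV1-72 leader 3000 of IgA and 1 of IgD, and the IGHV5-9-1 leader 578 of IgA and 78 of IgM. IGHV1-49 held 25328 counts of IgG2a/c, 15579 of IgG2b and 36 of IgM in anti-CTLA-4 replicate 3, and IGHV1-9 held 19200 of IgG2a/c, 7189 of IgG2b and 10 of IgM in replicate 5. IGHV2-9 in isotype replicate 2 was mainly IgG2b, with 15506 counts of that class and 522 of IgM, and the IGHV1-62-2/IGHV1-71 leader of anti-CTLA-4 replicate 2 mainly IgE, with 4670 counts beside 2424 of IgG1 and 3 of IgM. In 8 of the 10 leaders the best counted row on either side had no V mismatch. The exceptions were the joint IGHV1-62-3/IGHV1-72 leader, with the same 3 mismatches on both sides, and IGHV1-9, with 1 mismatch in its IgM row and 0 in its switched row.

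Some rearrangements occurred in several libraries. Of the 876, 42 spanned in several mice, 39 of them in 2 mice, 2 in 3 and 1 in 4, and 207 (23.6%) were seen in some class in another mouse. Those 207 had a median total count of 413 against 18 for the other 669 and held 79.1% of all counts on spanning rearrangements. The sharing was uneven. Between the 8 pairs of mice with successive replicate numbers in a group, 193 members of a mouse were found in the other mouse of the pair, against 52 for the 12 other pairs within a group and 13 for the 25 pairs across groups. Isotype replicates 3 and 4 (40 of the 95 members of replicate 3 were seen in replicate 4) and anti-CTLA-4 replicates 3 and 4 (56 of 154) shared most. The part that this sharing has in the results was not tested directly. Some results are given below also without the 207 shared rearrangements. The others, among them class shares, shares by count and count shares of single classes, include them. Productive heavy chains took 159157 to 362445 deposited counts per mouse and formed 20201 to 40381 rearrangements. Whether the counts stand for reads or for molecules is not stated, so intervals cover counting error only.

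The first comparison asked whether CTLA-4 blockade changed how many rearrangements spanned the switch. The isotype mice held 52, 107, 95, 8 and 19 spanning rearrangements in replicates 1 to 5, a mean of 56.2 ± 44.2 (SD, n = 5). The anti-CTLA-4 mice held 107, 206, 154, 41 and 87, a mean of 119 ± 63.3 (SD, n = 5). Replicates 2 and 3 of the anti-CTLA-4 group lay above every isotype mouse and the other 3 within the isotype range, so the groups overlapped, and the difference of 62.8 did not pass (p = 0.119 by two-sided exact permutation, adjusted p = 0.151 in a family of 6 tests on numbers). Without anti-CTLA-4 replicate 2 the difference was 41.05. Without the rearrangements seen in another mouse it was 53.0 (exact permutation p = 0.0794, adjusted p = 0.105).

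The number of switched rearrangements also differed between mice, so the share that spanned was compared too. Of the rearrangements with any switched class, 11.4%, 19.0%, 12.5%, 2.17% and 7.22% spanned in isotype replicates 1 to 5. In anti-CTLA-4 replicates 1 to 5 the shares were 19.2%, 19.7%, 19.7%, 11.4% and 15.3%. The first 3 of these lay just above the highest isotype mouse, and the isotype group held the lowest values, with isotype replicate 4 at 8 of 368 (95% exact Clopper-Pearson interval 0.943% to 4.24%). Before assignment to the mouse with most counts, 15 rearrangements spanned in that mouse. The means of 17.1% ± 3.67 and 10.5% ± 6.27 (SD, n = 5 each) did not differ past the threshold (two-sided exact permutation p = 0.0794, adjusted p = 0.151). At an equal depth of 159112 counts the expected shares averaged 17.5% and 10.7%, and without the rearrangements seen in another mouse 15.3% and 8.77% (exact permutation p = 0.0397, adjusted p = 0.105).

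**Figure D1:**
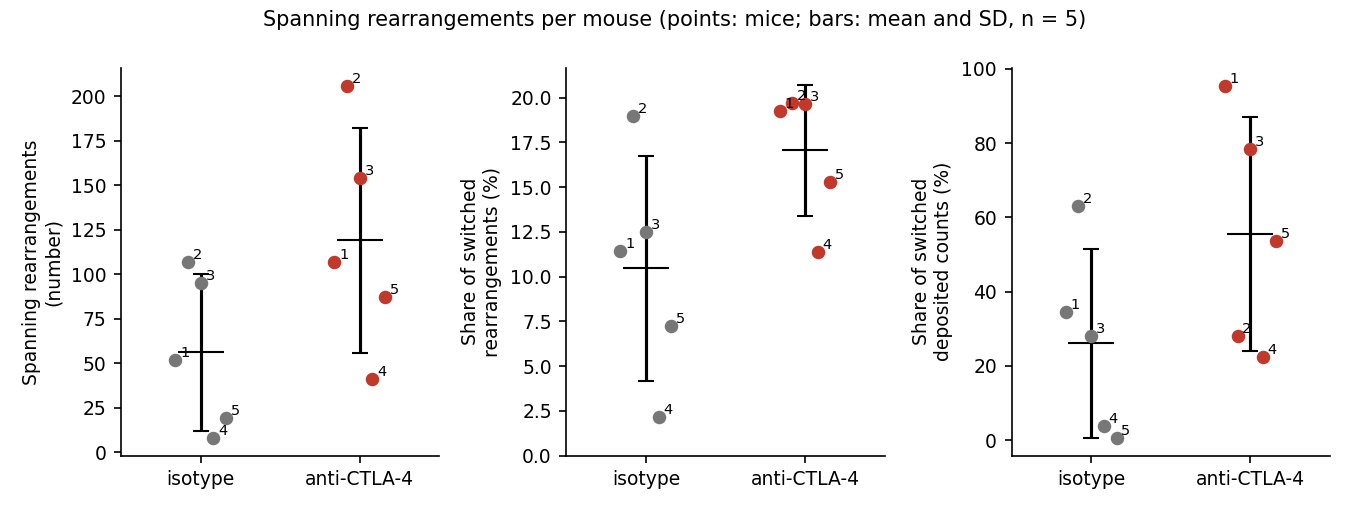
Number of spanning rearrangements (left), their share of switched rearrangements in percent (middle) and their share of switched deposited counts in percent (right) for the 5 isotype and 5 anti-CTLA-4 mice, each point 1 mouse labelled by its replicate number, with bars for the mean and SD. The groups overlap in all 3 panels, with 8 spanning rearrangements in isotype replicate 4 and 206 in anti-CTLA-4 replicate 2 at the extremes.

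Weighted by counts, spanning rearrangements filled from 0.632% to 95.5% of the switched transcripts of a mouse. In the isotype mice they held 34.7%, 63.2%, 28.1%, 3.73% and 0.632% of switched counts in replicates 1 to 5, and in the anti-CTLA-4 mice 95.5%, 28.0%, 78.4%, 22.4% and 53.6%. Anti-CTLA-4 replicates 1 and 3 lay above every isotype mouse, replicates 2 and 4 near the isotype mean. The means of 55.6% ± 31.6 and 26.1% ± 25.5 (SD, n = 5 each) did not differ past the threshold (exact permutation p = 0.143, adjusted p = 0.151), nor did the shares of all heavy-chain counts, 49.2% ± 30.4 and 20.8% ± 18.3 (exact permutation p = 0.119, adjusted p = 0.151). Without anti-CTLA-4 replicate 1 the differences were 19.5 percentage points for switched counts and 18.7 for all counts, in place of 29.5 and 28.4. Without the rearrangements seen in another mouse they were 19.6 and 15.6 (exact permutation p = 0.0873 and 0.0317, adjusted p = 0.105 for each).

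By class, the share that spanned was higher for IgG than for IgA. Of IgG rearrangements, 13.9% ± 8.18 also held IgM or IgD in isotype mice and 20.6% ± 4.31 in anti-CTLA-4 mice (SD, n = 5 each; exact permutation p = 0.151, adjusted p = 0.151), a difference of 6.74 percentage points that was 3.69 without isotype replicate 4. Of IgA rearrangements, 0.556%, 2.73%, 0.505%, 2.66% and 3.45% did so in isotype replicates 1 to 5 and 5.71%, 1.53%, 4.43%, 4.84% and 12.7% in anti-CTLA-4 replicates 1 to 5. All anti-CTLA-4 mice except replicate 2 lay above the isotype range, and the difference of 3.87 percentage points did not pass after adjustment (exact permutation p = 0.0476, adjusted p = 0.151). It was 4.95 without anti-CTLA-4 replicate 2 (adjusted p = 0.0476 by the exact permutation test), 2.15 without replicate 5, and 1.96 without the rearrangements seen in another mouse (exact permutation p = 0.579). Within mice the IgG share exceeded the IgA share by 13.3 percentage points on average, in 9 of 10 mice. This comparison was chosen after the data were seen and passed (exact sign-flip permutation p = 0.00391, adjusted p = 0.00586 over 3 such tests, n = 10). The exception was isotype replicate 4, at 1.69% for IgG and 2.66% for IgA. Without the rearrangements seen in another mouse the within-mouse difference was 12.5 percentage points (exact sign-flip permutation p = 0.00391, adjusted p = 0.00586). With only the best counted of each set of near-identical junctions, the IgG shares averaged 26.0% in isotype and 38.5% in anti-CTLA-4 mice.

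The share that spanned depended on how many counts a rearrangement had. Among rearrangements whose main switched class was IgG, 9.76% of 1700 with 1 switched count also held IgM or IgD, as did 21.1% of 1193 with 2 to 9 counts, 23.2% of 710 with 10 to 99, 41.0% of 300 with 100 or more but under 1000, and 73.6% of 106 with 1000 or more. IgA did not follow this order. Over the same classes of counts its shares were 1.29% of 465, 4.64% of 280, 3.16% of 253, 2.35% of 340 and 6.47% of 139. With at least 100 counts the IgG share ranged over mice from 0% to 67.5% with a median of 48.0%, and the IgA share from 0% to 8.51% with a median of 2.86%, and IgG was higher in 8 of 10 mice, the exceptions being isotype replicates 4 and 5 with an IgG share of 0%. Both groups showed this split: at 1000 counts or more, 20 of 29 IgG rearrangements spanned in isotype mice and 58 of 77 in anti-CTLA-4 mice, against 4 of 92 and 5 of 47 for IgA. For IgE, the class of mast cell sensitisation, 13 of 23 rearrangements with 1000 counts or more spanned, 4 of 12 in isotype and 9 of 11 in anti-CTLA-4 mice. These pooled shares carry no test, since rearrangements of 1 mouse are not replicates.

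**Figure D2:**
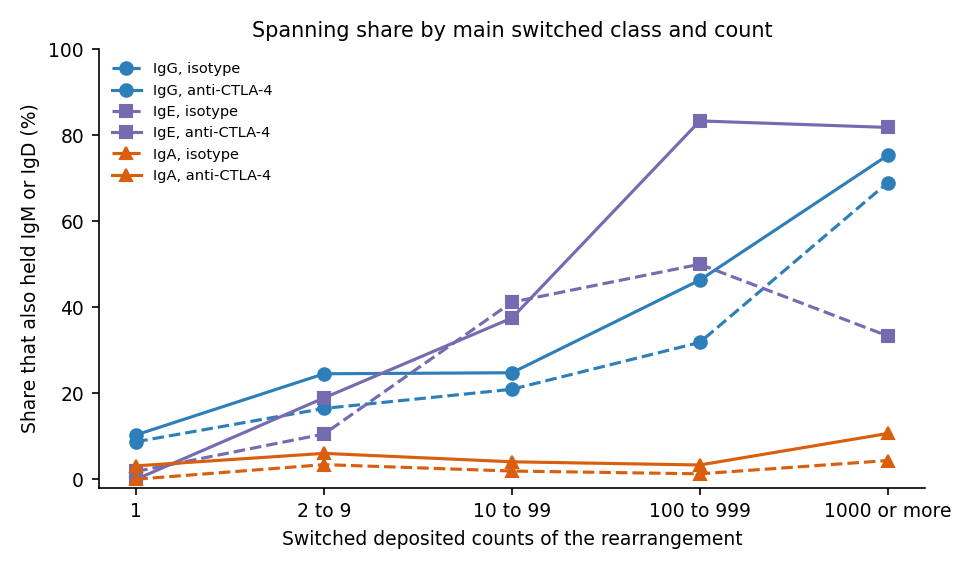
Share of rearrangements that also held IgM or IgD (y axis, percent) against the switched deposited counts of the rearrangement in 5 classes (x axis), pooled over the mice of a group, by main switched class (colours and markers) with isotype dashed and anti-CTLA-4 solid. IgG rises to 69.0% and 75.3% at 1000 counts or more, whereas IgA stays at or under 10.6% in each class, and the IgE points rest on as few as 8 rearrangements.

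Nearly all unswitched partners were IgM. Among the 876, 826 held IgM without IgD, 45 held both and 5 held IgD without IgM. Those 5 were all in isotype mice, and IgD partners otherwise occurred in 32 of 595 spanning rearrangements of anti-CTLA-4 mice and 13 of 281 of isotype mice. On the switched side 831 held IgG, 59 IgA and 73 IgE. The most frequent pair was IgM with IgG2b in 558 (63.7%), followed by IgM with IgG2a/c in 394 (45.0%), with IgG1 in 368 (42.0%), with IgG3 in 246 (28.1%), with IgE in 73 (8.33%) and with IgA in 56 (6.39%). A rearrangement can hold several pairs.

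Many spanning rearrangements held a series of switched classes. At least 2 switched classes were found in 434 (49.5%), all 4 IgG genes in 112, and both IgE and IgG1, the classes favoured by interleukin-4, in 57 of the 73 with IgE. Of the 59 with IgA, 36 held neither IgG nor IgE, and of the 831 with IgG, 744 held neither IgA nor IgE. Among the 56 that paired IgM with IgA, 27 were in anti-CTLA-4 replicate 5. The number of genes followed the count, with a median of 2 switched counts for the 426 rearrangements with 1 switched gene, 120 for the 121 with 3 and 4272 for the 27 with 5. All 51 spanning rearrangements with 1000 or more IgG2a/c counts also had IgG2b counts, at no less than 25.4% of the sum of both. Whether the calls of IgG2b and IgG2a/c are in part mixed in these files was not tested. Counts of classes per rearrangement are given with that limit.

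The junctions of 3 rearrangements with a broad set of classes are shown beside the leaders, again with bases outside the germline segments in capitals, because they held 6 or 7 of the 8 constant genes.
IGHV14-1/IGHV14-2 with IGHJ4, anti-CTLA-4 replicate 3: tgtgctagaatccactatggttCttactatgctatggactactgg
IGHV10-1 with IGHJ1, isotype replicate 3: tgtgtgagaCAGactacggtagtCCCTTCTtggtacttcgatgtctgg
IGHV8-8 with IGHJ4, anti-CTLA-4 replicate 2: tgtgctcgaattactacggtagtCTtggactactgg
The joint IGHV14-1/IGHV14-2 rearrangement had 497 counts of IgM, 4 of IgD, 1360 of IgG3, 1243 of IgG1, 12237 of IgG2b, 22603 of IgG2a/c and 1 of IgA, that is 7 of the 8 constant genes. The IGHV10-1 rearrangement had 58 counts of IgM, 6822 of IgG1 and 6418 of IgE, with 1939 of IgG2b and 1170 of IgG2a/c. It also occurred in isotype replicate 4, where it spanned with fewer counts. The IGHV8-8 rearrangement was mainly IgE, with 342 counts of IgE, 64 of IgM, 1 of IgD and 3 to 21 of each IgG gene. It was found in 1 mouse alone. None of the 3 had a V mismatch in its best counted rows.

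Class shares differed more between mice than between groups. IgG2b was held by 51.1% ± 21.0 of the spanning rearrangements of isotype mice and 62.7% ± 11.2 of those of anti-CTLA-4 mice, IgG2a/c by 31.4% ± 25.1 and 46.6% ± 14.9, IgG1 by 31.97% ± 8.46 and 38.6% ± 15.5, and IgG3 by 24.9% ± 15.2 and 30.8% ± 10.9 (SD, n = 5 each). IgA was held by 17.9% ± 26.3 and 10.7% ± 12.6, IgE by 6.30% ± 9.35 and 5.80% ± 5.39, and IgD by 10.04% ± 8.93 and 4.48% ± 2.82. Single mice set several of these means. In isotype replicate 4, with 8 spanning rearrangements, 62.5% held IgA and 0 held IgG2a/c or IgG3, in isotype replicate 3 22.1% held IgE, and in anti-CTLA-4 replicate 2 62.6% held IgG1. The IgG1 difference of 6.67 percentage points was 0.674 when that last mouse was left out. None of the 8 class measures passed by the exact permutation test, the smallest adjusted value being p = 0.635.

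**Figure D3:**
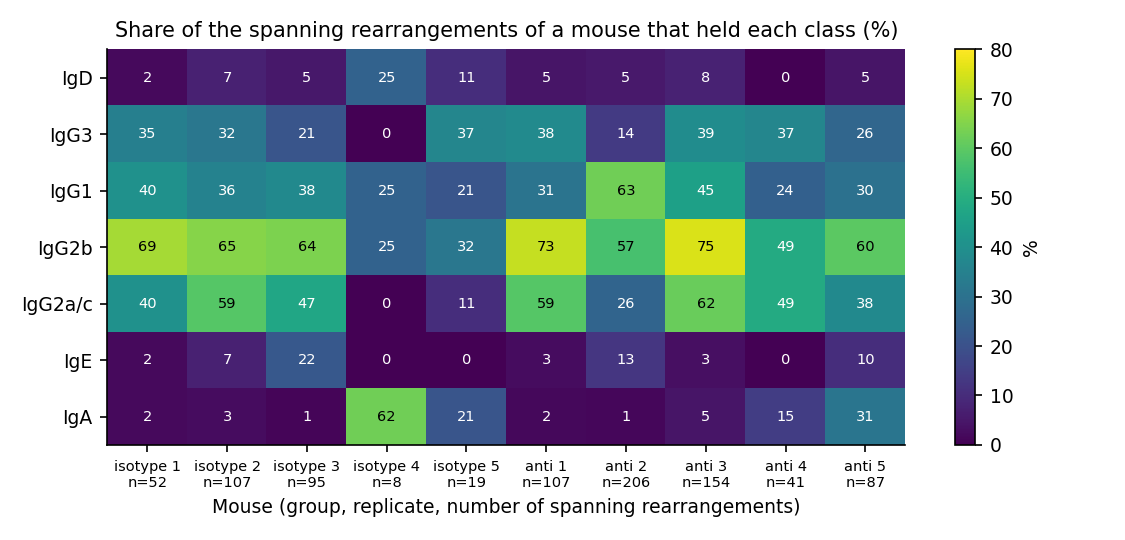
Share of the spanning rearrangements of a mouse that held each class, in percent (colour and printed number), for the 10 mice (columns, with the number of spanning rearrangements) and 7 classes other than IgM (rows). IgG2b leads in most mice, IgA in isotype replicate 4 at 62.5%, and IgG1 in anti-CTLA-4 replicate 2 at 62.6%.

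Spanning rearrangements were rare among IgM rearrangements, and their part of IgM transcripts varied widely between mice. They formed 0.233% ± 0.161 of IgM rearrangements and 10.3% ± 11.9 of IgM counts in isotype mice, and 0.712% ± 0.473 and 28.0% ± 23.9 in anti-CTLA-4 mice (SD, n = 5 each). The IgM count share ran from 1.99% to 30.1% in isotype mice with a median of 4.48%, the highest value being replicate 1, and from 8.76% to 60.6% in anti-CTLA-4 mice with a median of 13.4%, so the groups overlapped. Of IgD counts they held 0.0620% ± 0.0514 and 0.161% ± 0.124. On the switched side they held 41.6% ± 37.6 of IgG3 counts in isotype and 77.9% ± 19.9 in anti-CTLA-4 mice. The IgG3 shares ran from 0% to 95.2% and from 49.7% to 98.3%, so the groups overlapped. The means were 48.3% and 65.4% for IgG1, 38.4% and 67.2% for IgG2b, and 46.4% and 70.4% for IgG2a/c. For IgE they were 46.7% and 57.8%, with no IgE counts in anti-CTLA-4 replicate 4. For IgA they were 7.16% ± 10.9 and 7.18% ± 7.14. No test was set for the count shares of single classes.

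The 2 sides of a spanning rearrangement were often unequal in count. The unswitched side had a median of 8 counts (quartiles 3 and 29, highest 9259) and the switched side a median of 9 (quartiles 2 and 133, highest 104093). More switched than unswitched counts were found in 446, fewer in 374 and equal numbers in 56. The median unswitched share of a rearrangement's counts was 54.8% ± 9.98 in isotype mice and 42.6% ± 11.6 in anti-CTLA-4 mice (SD, n = 5 each), with no difference past the threshold (exact permutation p = 0.135). At the edge of the rule, 126 spanning rearrangements rested on 1 unswitched count, 173 on 1 switched count and 30 on 1 of each, while 271 had at least 10 on each side. Just outside it, 2101 of the 4845 rearrangements with switched classes alone had 1 count, and 168 had 1000 or more. In 76 spanning rearrangements the unswitched counts were under 1% of the total, as in the IGHV8-8 leader above. Whether such few counts come from the same cells was not tested.

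**Figure D4:**
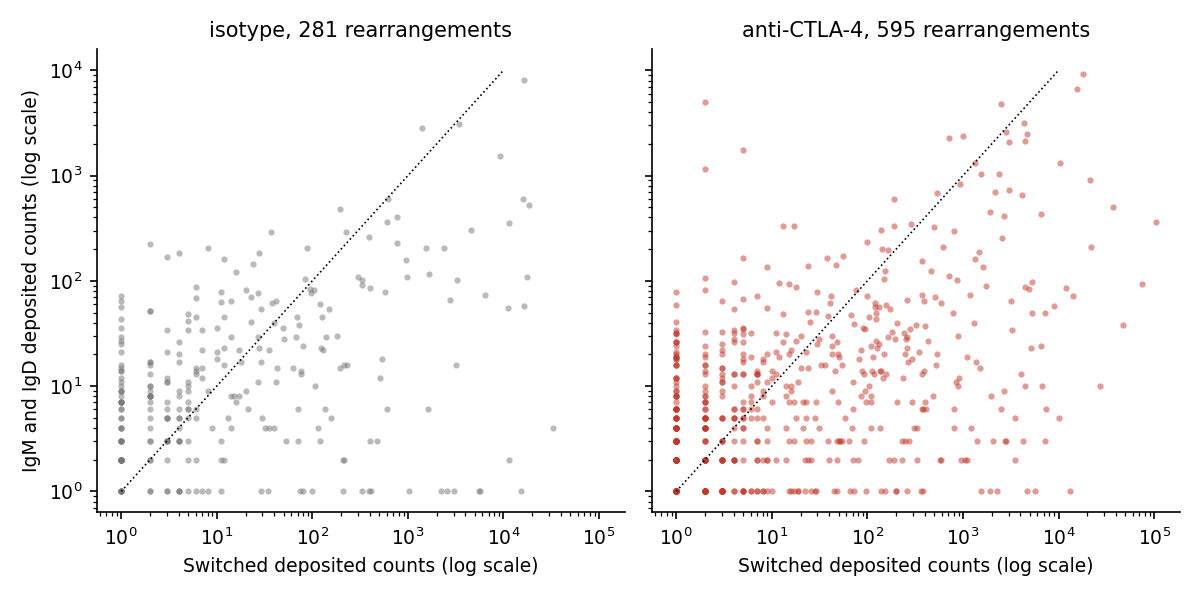
IgM and IgD deposited counts (y axis) against switched deposited counts (x axis) of each spanning rearrangement, both on log scales, for 281 in isotype mice (left) and 595 in anti-CTLA-4 mice (right); the dotted line marks equal counts. Points spread on both sides of the line, with the row of points at 1 unswitched count reaching 13055 switched counts in anti-CTLA-4 mice.

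V mismatches were counted ahead of the junction, which is identical on both sides by the rule, in the best counted row of each side. The rule itself leaves out any pair whose junction has mutated, so mutated rearrangements are less likely to enter. In 562 of the 876 (64.2%) neither side had a mismatch. Both sides had the same number above 0 in 78, the switched row had more in 84 and the unswitched row more in 152. Of the 156 with mismatches on both sides, 77 shared at least 1 identical mismatch and 41 had identical sets. In 634 (72.4%) some unswitched row and some switched row matched in their V mismatches, where a pair of rows with no mismatch also counts as matching. The 562 with no mismatch on either side are all among these 634. With at least 10 counts on each side, 226 of 271 (83.4%) had no mismatch on either side and 254 (93.7%) had matching rows, those 226 included.

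Spanning rearrangements lay between the other kinds in mutation. Their switched rows averaged 0.277 ± 0.134 mismatches per 100 V nucleotides and their unswitched rows 0.323 ± 0.148 (SD, n = 10 mice). Rearrangements with switched classes alone averaged 0.781 ± 0.153 and those with IgM or IgD alone 0.109 ± 0.0123. The switched rows were below the switched-alone rearrangements of the same mouse in 10 of 10 mice, with a mean difference of -0.504 (two-sided exact sign-flip permutation p = 0.00195, the smallest that 10 mice can give, adjusted p = 0.00586 over 3 tests). Requiring an identical junction favours this direction, since a rearrangement whose junction mutated can fall among the switched-alone ones. How much of the difference the rule accounts for was not tested. The difference held with at least 10 counts on each side (-0.430, adjusted p = 0.0117 by the same exact test) and without the rearrangements seen in another mouse (-0.498, adjusted p = 0.00586 by that exact test). The means were lower in each of the 6 switched classes. Spanning rearrangements with IgG1 averaged 0.230 ± 0.195 in their IgG1 rows and those with IgA 0.180 ± 0.194 in their IgA rows, whereas rearrangements with switched classes alone averaged 0.611 ± 0.221 and 0.816 ± 0.229 (SD over 10 mice).

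The unswitched side was more mutated than the bulk of IgM and IgD. It exceeded rearrangements with IgM or IgD alone by 0.214 mismatches per 100 nucleotides, in 9 of 10 mice, in a comparison chosen after the data were seen (exact sign-flip permutation p = 0.00391, adjusted p = 0.00586 over 3 tests). The call ended with at least 10 counts on each side, where the difference was 0.0088 (adjusted p = 0.824 by the exact test). Pooled over mice, the unswitched rows of spanning rearrangements averaged 0.646 per 100 nucleotides at 1 unswitched count, 0.343 at 2 to 9 and 0.187 at 10 or more. Rearrangements with IgM or IgD alone averaged 0.122, 0.0815 and 0.157 at the same counts. The excess was thus found at low counts. Within a rearrangement the switched row minus the unswitched row averaged -0.0458 mismatches per 100 nucleotides, below 0 in 8 of 10 mice (exact sign-flip permutation p = 0.0293, adjusted p = 0.0352). That call ended when any mouse other than isotype replicate 1 or 4 was left out (-0.0558 to -0.0353 over the 10 mice) and turned to 0.0088 with at least 10 counts on each side. None of the 6 mutation measures passed the test between the groups (smallest adjusted p = 0.857, exact permutation test). The switched rows averaged 0.284 ± 0.158 in isotype and 0.271 ± 0.123 in anti-CTLA-4 mice (SD, n = 5 each).

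**Figure D5:**
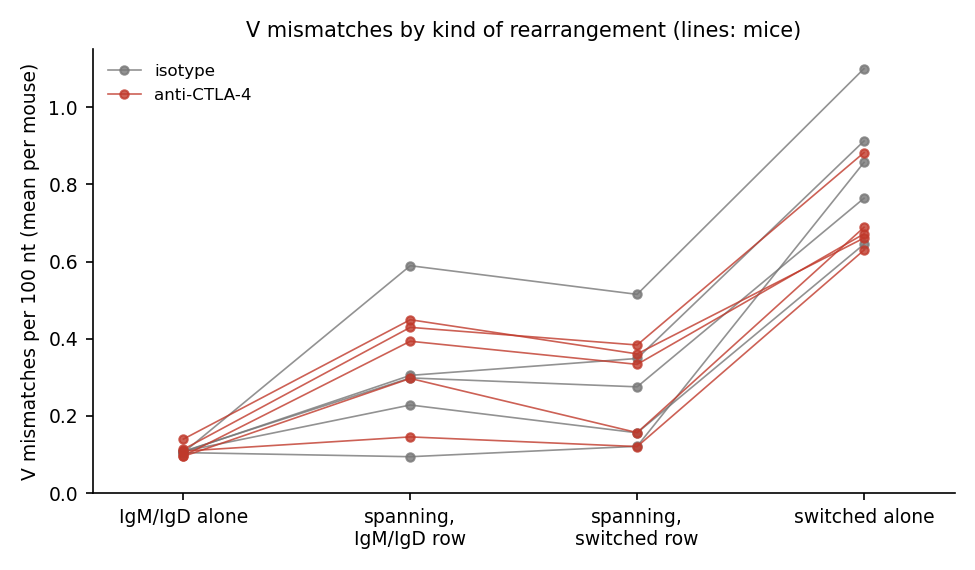
Mean V mismatches per 100 nucleotides (y axis) in each of the 10 mice (lines, grey for isotype and red for anti-CTLA-4) for rearrangements with IgM or IgD alone, the unswitched and the switched rows of spanning rearrangements, and rearrangements with switched classes alone (x axis). Every line is higher at the right end (0.630 to 1.10) than at the switched rows of spanning rearrangements (0.121 to 0.515).

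Mutated spanning rearrangements were few, and 3 with at least 10 counts on each side are shown because they mark the extremes: more mismatches in the switched row, more in the unswitched row, and most in common. Capitals have the same meaning as above.
IGHV2-3 with IGHJ4, anti-CTLA-4 replicate 1: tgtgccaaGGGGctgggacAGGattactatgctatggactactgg
IGHV14-1 with IGHJ3, anti-CTLA-4 replicate 1: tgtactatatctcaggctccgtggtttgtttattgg
IGHV4-1 with IGHJ4, anti-CTLA-4 replicate 4: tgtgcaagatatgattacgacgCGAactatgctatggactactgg
The IGHV2-3 rearrangement had 0 mismatches in its IgM row and 5 in its switched row, on 50 unswitched and 778 switched counts, mainly IgG2b. The IGHV14-1 rearrangement had 15 mismatches in its IgM row and 7 in its switched row, with 4 in common, on 22 and 86 counts. The IGHV4-1 rearrangement had the same 13 mismatches in its IgM row and its IgG2a/c row, on 14 and 10 counts. In all, 31 spanning rearrangements in 9 mice had at least 5 mismatches on both sides, and 15 of these carried the joint name IGHV14-1/IGHV14-2. That V name had 1.08 mismatches per 100 nucleotides also in rearrangements with IgM or IgD alone, against 0.0396 for IGHV14-4. How many of its mismatches arose by somatic mutation was not tested.

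The junctions of spanning rearrangements were slightly short. They averaged 39.9 ± 1.63 nucleotides against 41.3 ± 1.14 for rearrangements with switched classes alone (SD, n = 10 mice), shorter in 8 of 10 mice (exact sign-flip permutation p = 0.0352, adjusted p = 0.0352). The call ended when any mouse other than isotype replicate 3 or anti-CTLA-4 replicate 2 was left out. Bases that the alignment gave to no germline segment numbered 5.09 ± 0.698 against 5.74 ± 0.316, fewer in 8 of 10 mice (exact sign-flip permutation p = 0.00781, adjusted p = 0.00781; chosen after the data were seen). With at least 10 counts on each side this difference was -0.721 and did not pass (adjusted p = 0.278, exact test). The rule asks for an identical junction, and a longer junction has more bases that must match. The part of the rule in the lengths and in the unassigned bases was not tested. The J genes IGHJ1 to IGHJ4 took 15.8% ± 7.42, 37.2% ± 8.72, 25.3% ± 5.14 and 21.7% ± 6.11 of spanning rearrangements (SD, n = 10 mice). Rearrangements with switched classes alone had 19.5% ± 5.16, 29.4% ± 8.15, 22.2% ± 5.15 and 28.8% ± 8.41, and those with IgM or IgD alone averaged 16.2%, 33.0%, 23.7% and 27.1%. No test was set for J genes.

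Spanning rearrangements were spread over 80 of 160 V names, where a joint name such as IGHV14-1/IGHV14-2 stands for genes that the files do not separate. The joint name IGHV14-1/IGHV14-2 led with 48, followed by IGHV14-4 with 43, IGHV1-80 with 41 and IGHV1-26 and IGHV9-3 with 40 each, together 24.2%. They were not evenly spread over mice. The joint IGHV14-1/IGHV14-2 had 11, 12 and 13 in isotype replicate 2 and anti-CTLA-4 replicates 2 and 3 but 0 in isotype replicates 4 and 5 and anti-CTLA-4 replicate 4. IGHV9-3 had 16 in anti-CTLA-4 replicate 1 and at most 6 in any other mouse, while IGHV1-26 occurred in 9 of 10 mice with 2 to 8. Near-identical junctions account for part of such numbers: at 90% junction identity the 876 fell into 781 sets, the largest being 10 rearrangements of IGHV8-12 in anti-CTLA-4 replicate 2 and 8 of IGHV1-5 in anti-CTLA-4 replicate 1. Of 4 V genes typical of B-1 cells, which respond with little T cell help, IGHV11-2 and IGHV7-1 had 2 spanning rearrangements each and IGHV11-1 and IGHV12-3 had 0. Among the 4845 rearrangements with switched classes alone IGHV11-2 had 2, IGHV7-1 7, IGHV11-1 0 and IGHV12-3 1, and among the 272352 with IgM or IgD alone they had 389, 477, 13 and 224. These numbers are too low to compare.

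V gene use did not differ past the threshold between the groups. None of 80 V names passed (0% called, edgeR quasi-likelihood test on numbers of rearrangements with Benjamini-Hochberg adjustment), with 7 at an unadjusted p under 0.05, and DESeq2 called 0 with 2 under that value. IGHV1-18 had the smallest p, with 11 spanning rearrangements in anti-CTLA-4 mice (0.971% to 2.60% per mouse) and 0 in isotype mice (adjusted p = 0.252, edgeR). IGHV1-66 (7 against 0) and IGHV5-4 (6 against 0) followed with adjusted p = 0.436 by edgeR. In the other direction IGHV3-5 had 0 against 2, and IGHV1-54 and IGHV10-1 had fitted log2 fold changes below 0 with no call. With simulated 4-fold changes the same test recovered 14.0% of the changed V names, so a difference of that size would mostly have been missed.

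Against rearrangements with switched classes alone, with the mouse as a block, 0 of 26 V names passed (0% called, edgeR), with 8 under an unadjusted p of 0.05, all of them with a fitted fold change below 0, and DESeq2 called 0 with 6 under that value. IGHV1-15 came nearest, with 8 of 876 spanning and 134 of 4845 switched-alone rearrangements (log2 fold change of -2.05 with a standard error of 0.67, adjusted p = 0.0650 by edgeR). Its share was higher among spanning rearrangements in 3 of 10 mice. The joint IGHV1-62-2/IGHV1-71 (3 against 47) and IGHV1-62-3/IGHV1-72 (17 against 147) followed with log2 fold changes of -1.88 and -1.15 (adjusted p = 0.150 each, edgeR). For the first of these the mean share per mouse ran the other way, 1.82% against 0.889%, as it did for IGHV1-78, also among the 8 (2.35% against 1.80%). Fitted folds could lie below the plain shares. IGHV1-26 took 4.57% of spanning and 3.98% of switched-alone rearrangements and was higher in 7 of 10 mice, but its fitted log2 fold change was -0.37. The common direction of the 8 is given with that limit, and its source was not tested. The names with the smallest p above 0, IGHV14-1/IGHV14-2 (0.42), IGHV14-4 (0.38) and IGHV8-12 (0.23), were also among the names with most spanning rearrangements, and none had an adjusted p under 0.600 by edgeR. Testing all 113 names with no filter called 3, all with fitted folds below 0, and leaving out isotype replicate 1, anti-CTLA-4 replicate 2 or anti-CTLA-4 replicate 4 called 1.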

How the data were processed

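RNA from the nodes of each mouse was made into receptor libraries with a Takara Bio kit for mouse B cell receptors that uses molecular identifiers, per the labels' protocols. The authors deposited 1 table per mouse with a row per assembled sequence, its gene calls, its germline alignment and a whole-number count, per the file headers. No header or label names the aligner, germline set, genome build or treatment of those identifiers (not given in the sources used here). Thus the deposited counts were used as they stand.

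Productive heavy-chain rows with a constant gene call were grouped by mouse, V name (several listed genes kept as a joint name), J gene and junction. Rows with no constant gene (0.186% on average of heavy-chain rows) were left out. All 110 single V names matched the GRCm38.p6 gene table, used for names alone. Mismatches were counted over at least 200 aligned V nucleotides ahead of the junction. Rearrangements that spanned in several mice went to the mouse with most counts, and were left out of the number of switched rearrangements of the others. Rearrangements counted as like each other had the same mouse, V, J and junction length and at least 90% junction identity.

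Groups came from the sample titles. Group differences were tested by two-sided exact permutation of the 10 mice (smallest p 0.00794), and within-mouse differences by exact sign flips (smallest p 0.00195), with Benjamini-Hochberg adjustment within families and a threshold of 0.05. V names were tested with edgeR 4.0.16 (TMM, glmQLFit, glmQLFTest) in R 4.3.3, with DESeq2 1.42.0 as an alternative and Python 3.11.15 for the rest. The usual filter on low numbers kept 0 of 80 names in the group test, which was therefore run on all 80 names. It kept 26 of 113 in the other. Tested on simulated data with 4-fold changes, these tests recovered 7 of 50 and 10 of 44 changed names.

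The members and lists were chosen with earlier results of these data known. Named V genes were those past the threshold or, failing that, the 3 with the smallest p in each direction, the 5 with most members and a list of 4 B-1 genes. Named rearrangements were the one with most counts per mouse, those with most constant genes, the 3 with IgE and most counts, and, with at least 10 counts on each side, those with the largest mismatch differences and most shared mismatches. Replicate numbers were not taken as pairs, so no block was used in the main tests between the groups.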

Additional observations from a re-analysis of the deposited data

How the results depend on the processing

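The lower mismatches of switched rows against rearrangements with switched classes alone and the higher spanning share of IgG against IgA kept their direction and call in every alternative run. The requirement of an identical junction was the same in every run. It favours the first of these, and its part in the second was not tested. With each mouse left out in turn the differences ranged from -0.527 to -0.478 per 100 nucleotides and from 12.2 to 14.9 percentage points. No group difference passed its test with all mice, and 1 passed with a mouse left out, the IgA spanning share without anti-CTLA-4 replicate 2. Depth limits the edge of the rule, where 126 rearrangements rest on 1 unswitched count and 173 on 1 switched count.

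With each mouse left out, the difference anti-CTLA-4 minus isotype ranged from 2.15 to 4.95 points for the IgA spanning share, -0.0123 to 0.111 for mismatches of unswitched rows, -0.0528 to 0.0456 for those of switched rows, -5.12 to 2.57 points for members with no mismatch, -0.452 to 8.10 for shared mismatches, -5.14 to 0.343 for matching rows, -0.293 to 10.2 for IgG3, -12.2 to 4.00 for IgA and -2.20 to 3.45 for IgE. The switched minus unswitched difference within mice ranged from -0.0558 to -0.0353, the junction length difference from -1.78 to -1.10, and V names called against switched-alone from 0 to 1. The fitted fold of IGHV10-1 ranged from -2.03 to 0.79 and turned without isotype replicate 3, and that of IGHV8-12 from -0.22 to 0.41, turned without anti-CTLA-4 replicate 5.

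With at least 2 counts on each side, group differences reversed for members with no mismatch (2.72), matching rows (7.48), IgE (0.533) and IgD (1.94), and the calls ended for switched minus unswitched mismatches (-0.0461), junction length (-1.25) and unassigned bases (-0.446). With at least 10 counts (added after seeing the data), mismatches of switched rows (0.0382), matching rows (7.49), IgD (0.161) and switched minus unswitched mismatches (0.0088) reversed, and the calls ended for unswitched mismatches (0.0088) and unassigned bases (-0.721). Without rearrangements seen in another mouse the calls ended for switched minus unswitched mismatches (-0.0442) and junction length (-0.814). Keeping the best counted of each set of like junctions (added) reversed mismatches of switched rows (0.0042), matching rows (1.66) and IgE (0.296), and ended the calls for switched minus unswitched mismatches (-0.0201), junction length (-0.972) and unassigned bases (-0.510). Mismatches of switched rows also reversed with IgM alone as unswitched side (0.0211) and without joint V calls (0.0440, added), and members with no mismatch without variable V positions (2.19). Without isotype replicates 3 and 4 (added) IgG3 (-3.63), IgA (2.11) and IgE (2.67) reversed. With no filter 3 V names were called against switched-alone, IGHV1-15 among them (-2.35, adjusted p = 0.0495, edgeR), and IGHV14-4 (-0.025) and IGHV8-12 (-0.25) reversed. The causes were not tested.

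Same-numbered mice across the groups correlated in V use at -0.201 to 0.131. These values rest on few rearrangements per V name and cannot settle whether such mice were handled together. With the number as a block the difference in spanning rearrangements stayed 62.8 (exact sign-flip permutation p = 0.0625, the smallest that 5 pairs can give), 0 V names were called, and no call changed. For V names against switched-alone, minimum counts of 2 and of 10 on each side could not be fitted, as too few names passed the filter.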
